A study of Caenorhabditis elegans with 2 samples.

Results

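Homeobox genes encode transcription factors that bind DNA through a homeodomain, a compact helical fold that often reads a TAAT core. In Caenorhabditis elegans the HOX genes pattern the body from head to tail, and many other members fix the identity of single neuron classes. The 82 genes described here are the protein-coding genes whose symbol is ceh- with a number (63 genes) or 1 of 19 names taken from mutant phenotypes, such as lin-39, unc-86 and mec-3. They were chosen by symbol alone, from 19985 protein-coding genes in the Ensembl annotation of WBcel235. ChIP-seq of whole L2 larvae of both sexes located the binding of NHR-21, a nuclear hormone receptor fused to eGFP. The only group held 2 biological replicates of strain OP361, in which the transgene wgIs361 supplies the tagged protein and the unc-119(tm4063) allele on chromosome III is present throughout. No control sample was analysed here, so no condition was compared. Signal from whole animals averages over all cells, and strong binding in few cells cannot be told apart from weak binding in many.

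The data were lists of intervals from the authors' peak caller, each with a signal value. The pooled list and both replicate lists held 30000 candidate intervals each, and 3647 pooled candidates were the optimal peaks, which are those past the authors' reproducibility threshold. Optimal peaks had signals from 52.2 to 1244, and the pooled candidates reached down to 9.85. Replicate 1 signals ranged from 5.89 to 514 and replicate 2 signals from 6.01 to 735. Ranks below run from 1, the highest signal of a list, and are compared within a list. The read depth of the libraries is unknown from these lists. A gene had a promoter summit when the highest point of an interval fell in the window from 1000 bp before to 250 bp after the 5′ end of one of its protein-coding transcripts.

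Few homeobox genes were bound at the promoter past the reproducibility threshold. Only ceh-38 and ceh-20 among the 82 had an optimal summit in the promoter window (2.44%, 95% Wilson interval 0.671 to 8.46%), against 11.6% of all protein-coding genes. No member had an optimal summit in an intron outside promoter windows (0%, 95% Wilson interval 0 to 4.48%), against 1.76% of all protein-coding genes. That interval includes 1.76%, so this absence cannot be read as a trait of members. Without replicate 1, where the strongest 3647 intervals of replicate 2 stand in for the optimal peaks, ceh-36 had an intronic summit. It was the only member to have one, among 352 protein-coding genes. The 6 HOX genes held weaker candidates or none, with lin-39 and ceh-13 nearest to the threshold. The share of members is a description of these lists and no test was run on it, because the genes were chosen with earlier results of these data known.

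Sequence at or beside 5 of these summits was read from the WBcel235 genome on the strand of the gene. It is shown because it comes from both optimal promoter peaks, the strongest HOX candidates and the strongest intronic candidate. Each stretch is the longest part without UTR bases within 100 bp of the summit. Capitals mark matches on either strand to the homeodomain-type word TAATTA, to the receptor half-sites AGGTCA and then AAGTCA, to the repeat GAGAGA, to the E-box CACGTG, to the GATA-type word TGATAA and to CGCGCG as a GC-rich word. The ceh-38 stretch is chrII:6951446-6951525 on the plus strand and ends at the last base before the annotated 5′ end. It thus stops short of the summit, which lies in the 5′ UTR and is not shown. The ceh-20 stretch is chrIII:6979012-6979212 on the plus strand. The lin-39 stretch is chrIII:7534806-7534911 on the minus strand. The ceh-13 stretch is chrIII:7554883-7555083 on the plus strand. The ceh-36 stretch is chrX:14185755-14185955 on the minus strand.
ceh-38: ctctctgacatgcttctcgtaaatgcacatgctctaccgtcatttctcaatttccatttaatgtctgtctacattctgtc
ceh-20: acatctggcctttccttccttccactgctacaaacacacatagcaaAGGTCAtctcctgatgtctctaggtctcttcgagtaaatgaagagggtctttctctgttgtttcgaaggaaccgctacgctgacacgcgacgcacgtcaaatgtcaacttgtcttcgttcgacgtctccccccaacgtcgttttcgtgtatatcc
lin-39: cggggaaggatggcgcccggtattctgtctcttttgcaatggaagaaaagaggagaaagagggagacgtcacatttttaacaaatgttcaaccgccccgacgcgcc
ceh-13: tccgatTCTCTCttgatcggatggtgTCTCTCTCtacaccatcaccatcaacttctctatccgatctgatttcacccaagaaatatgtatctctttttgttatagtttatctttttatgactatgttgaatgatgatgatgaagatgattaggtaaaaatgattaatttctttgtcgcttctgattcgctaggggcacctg
ceh-36: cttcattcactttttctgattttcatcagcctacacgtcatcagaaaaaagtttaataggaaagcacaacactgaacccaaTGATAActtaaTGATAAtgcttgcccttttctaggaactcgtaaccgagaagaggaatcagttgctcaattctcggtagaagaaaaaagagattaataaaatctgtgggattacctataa

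AGGTCA, a half-site read by many nuclear receptors, was found once in the ceh-20 stretch and in none of the other 4 stretches. In windows reaching 100 bp to either side of a summit it occurred at 7.87% of all optimal summits and at 6.48% of all pooled promoter summits. The ceh-13 stretch held 3 matches to TCTCTC, the reverse complement of GAGAGA, and 2 of these overlap. GAGAGA was present at 38.2% of optimal and 22.3% of pooled promoter summits in windows of that length. The ceh-36 stretch held 2 copies of TGATAA, a word bound by GATA factors that occurred at 22.4% of optimal summits. The ceh-38 and lin-39 stretches, which are shorter at 80 and 106 bases, held none of the marked words. For ceh-38 this covers upstream bases only, without the summit. The TAAT core, left in lower case, occurred once in the ceh-38 stretch, 3 times in the ceh-13 stretch and 6 times in the ceh-36 stretch, and was absent from the other 2 stretches. It occurred at 69.4% of all optimal summits in windows of the longer size. Letters that match or do not match say nothing here about which protein was bound.

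The strongest peak at a homeobox gene belonged to ceh-38, which encodes a ONECUT factor of the CUT class. Its peak at chrII:6951351-6951740 had a pooled signal of 217 (rank 374), with 96.0 in replicate 1 (rank 309) and 126 in replicate 2 (rank 397). It was the strongest promoter interval of any member in every list. The summit lay in the ceh-38 5′ UTR, 20 bp past a transcript start, and 246 bp upstream of the 5′ end of malt-1, the divergent neighbour that encodes a paracaspase. The peak counted for both genes, and the lists do not tell which of them, if either, it acts on. ceh-38 has 11 annotated 5′ ends. None of the 5 other CUT-class members of the list, ceh-21, ceh-39, ceh-41, ceh-48 and ceh-49, had a pooled candidate in the promoter window. Weak promoter intervals of replicate 1 alone lay at ceh-41 and ceh-48 (ranks 26496 and 29867).

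The other optimal promoter peak lay upstream of ceh-20, which encodes a PBC (Pbx-type) cofactor that binds DNA together with HOX proteins. The peak at chrIII:6978917-6979306 had a pooled signal of 150 (rank 730), with 57.0 in replicate 1 (rank 889) and 87.8 in replicate 2 (rank 761). It was second to ceh-38 among members in every list. Its summit was intergenic, 772 bp upstream of the ceh-20 5′ end, with no annotated gene within 250 bp and the next protein-coding 5′ end, that of F31E3.6, 2969 bp away. With a promoter window of 500 bp upstream this peak fell outside, and ceh-38 was the only member left. The other PBC genes, ceh-40 and ceh-60, had no pooled promoter candidate. Weak promoter intervals lay at ceh-60 in replicate 1 alone (ranks 22736 and 28230). ceh-60, which acts in the intestine in lipid and yolk metabolism, had an intronic candidate at chrX:6522676-6523065 (signal 37.96, rank 5446), 7275 bp downstream of its 5′ end and closer, at 3052 bp, to that of the adjacent gene ets-4.

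Among 19 homeobox genes outside the symbol rule, 2 had an optimal promoter summit (10.5%, 2.94 to 31.4%), near the 11.6% of all protein-coding genes. They were unc-62, the Meis-type partner of CEH-20, and dve-1, a factor of the mitochondrial unfolded protein response. The unc-62 peak at chrV:4506542-4506931 had a signal of 58.8 (rank 3133), with 30.3 in replicate 1 and 39.1 in replicate 2, and lay in an intron 467 bp upstream of an internal 5′ end. Overlapping optimal peaks in the 5′ UTR of unc-62, 801 and 1011 bp downstream of that end, had signals of 138 and 87.5. The dve-1 peak at chrX:433017-433406 had a signal of 55.1 (rank 3403), with 25.5 and 28.7 in replicates 1 and 2, and lay in its 5′ UTR, 428 bp upstream of an internal 5′ end. Of the 19 genes, 7 had a pooled promoter candidate (36.8%, against 41.2% of all protein-coding genes). Optimal summits far from a 5′ end had unc-39, a sine oculis-type gene (signals 174 and 81.2), and alr-1, a PRD-like gene (57.9), as the nearest gene, at distances of 6310, 4197 and 11560 bp upstream.

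**Figure D1:**
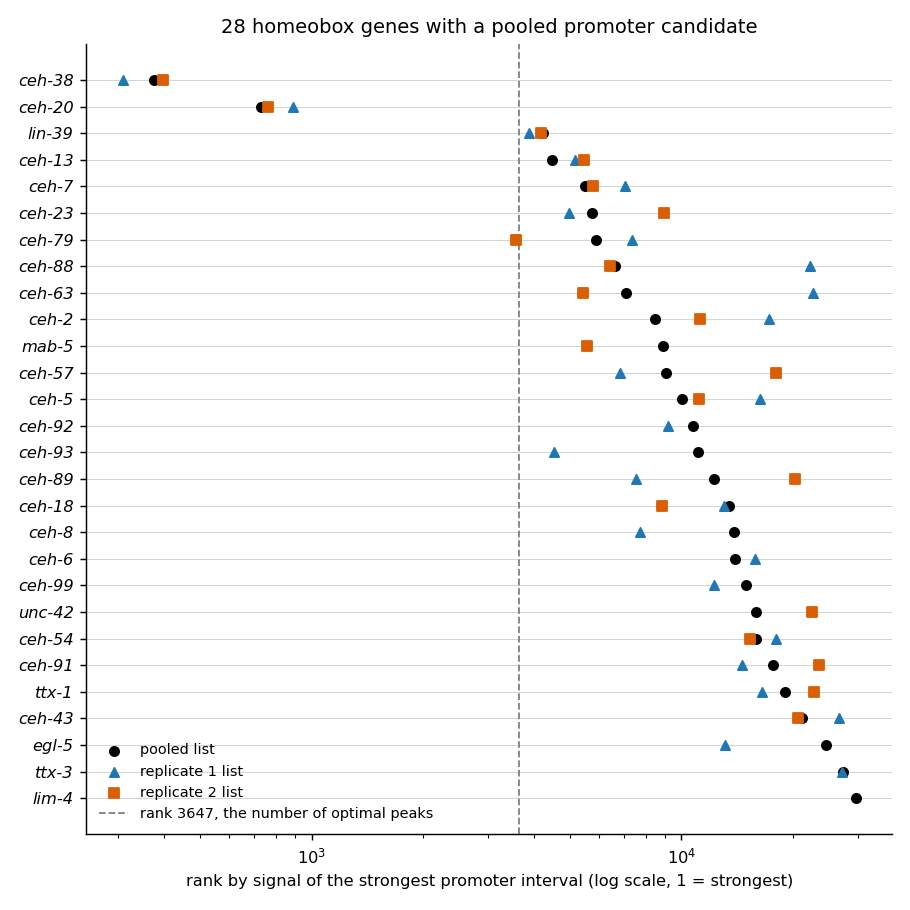
Rank of the strongest promoter interval (horizontal, log scale, 1 is the strongest) for the 28 homeobox genes with a pooled promoter candidate (vertical), in the pooled list (circles), replicate 1 (triangles) and replicate 2 (squares), with a dashed line at rank 3647. A missing symbol means no promoter interval in that list. ceh-38 and ceh-20 lie left of the line in all lists, and ceh-79 in replicate 2.

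Weaker candidates were spread over many members. A pooled candidate summit lay in the promoter window of 28 of the 82 genes (34.1%, 95% Wilson interval 24.8 to 44.9%), against 41.2% of all protein-coding genes. Of these 28, 2 had an optimal summit (7.14%, 1.98 to 22.6%), against 28.1% of the 8228 protein-coding genes with a promoter candidate. The median rank of the strongest promoter candidate was 10908 over the 28 members and 8160 over the 8228 genes. The weakest of them, at lim-4, had a −log10 q-value of only 0.0992. A q-value of at most 0.05, a limit set after seeing the data, was reached by a promoter candidate of 12 of the 28 members (42.9%) and of 4577 of the 8228 genes (55.6%). The 26 members with a candidate below the optimal peaks had signals from 9.97 to 46.4, with a median of 21.2.

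**Figure D2:**
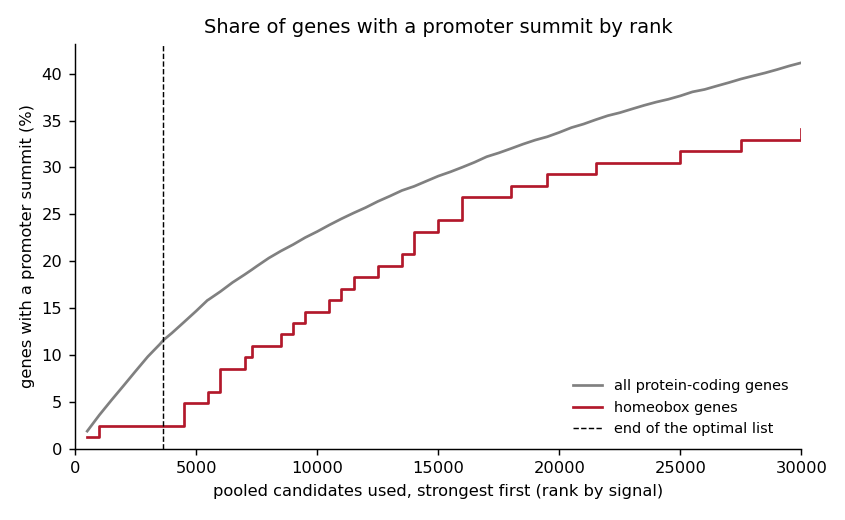
Share of genes with a promoter summit (vertical, %) when the pooled candidates are added from the strongest down (horizontal, rank by signal), for the 82 homeobox genes and all protein-coding genes. At rank 3647, the dashed line, the shares were 2.44% and 11.6%, and at rank 30000 they were 34.1% and 41.2%.

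The HOX genes set positional identity along the body. lin-39, which acts in the midbody and in vulval precursors, had its strongest promoter candidate at chrIII:7534616-7535005, with a pooled signal of 46.4 (rank 4222), 22.8 in replicate 1 (rank 3863) and 28.8 in replicate 2 (rank 4170). All of these ranks were just past 3647. The candidate had the same −log10 q-value as the optimal peaks, the highest of the list, which 4976 pooled candidates shared. Its summit was in an intron of the longer transcript, 6 bp upstream of the internal 5′ end of a shorter one. ceh-13, the labial-type gene of the anterior, had a candidate 677 bp upstream of its 5′ end at chrIII:7554788-7555177, with a signal of 44.2 (rank 4467), 18.8 in replicate 1 (rank 5145) and 23.3 in replicate 2 (rank 5449). A second candidate 477 bp upstream overlapped it and matched the same replicate intervals. With the strongest pooled candidates extended to 1.5 times the number of optimal peaks, lin-39 and ceh-13 joined ceh-38 and ceh-20. Then 4 members had a promoter summit (4.88%), against 3167 of all protein-coding genes (15.8%).

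The other HOX genes had lower values. mab-5, an Antennapedia-type gene that guides cell migration in the posterior, had a promoter candidate with a signal of 25.9 (rank 8912) that overlapped an interval of replicate 2 (22.99, rank 5544) and none of replicate 1. egl-5, an Abdominal-B-type gene of the tail, had one with a signal of 11.8 (rank 24588), matched in replicate 1 (10.5) and not in replicate 2. The posterior genes php-3 and nob-1 had no pooled promoter candidate, and php-3 had a promoter interval in a replicate list alone. Introns of HOX genes held 15 of the 32 intronic candidates at members, 7 of them in mab-5 and 5 in lin-39, at pooled ranks from 8191 down. Some of these intervals overlap one another, and some of those in mab-5 introns lay nearer to a 5′ end of bath-15 than to that of mab-5. The introns of mab-5 and lin-39 total 5517 and 6712 bp, against a median of 1.70 kb per member. Within 20 kb of the most upstream 5′ end of each gene, the pooled list had 17 candidates around ceh-13, 15 around lin-39, 25 around mab-5, 9 around egl-5, 4 around php-3 and 2 around nob-1. Neighbouring windows share candidates, and the density genome-wide was 299 per Mb. The 3 optimal peaks in these windows were nearer to other genes. The peak 15764 bp past the most upstream lin-39 5′ end (signal 256, rank 260) was nearest to cux-7, and those 14808 and 17424 bp past the ceh-13 5′ end (158 and 126) were nearest to R13A5.7 and to rpl-9, a ribosomal protein gene.

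**Figure D3:**
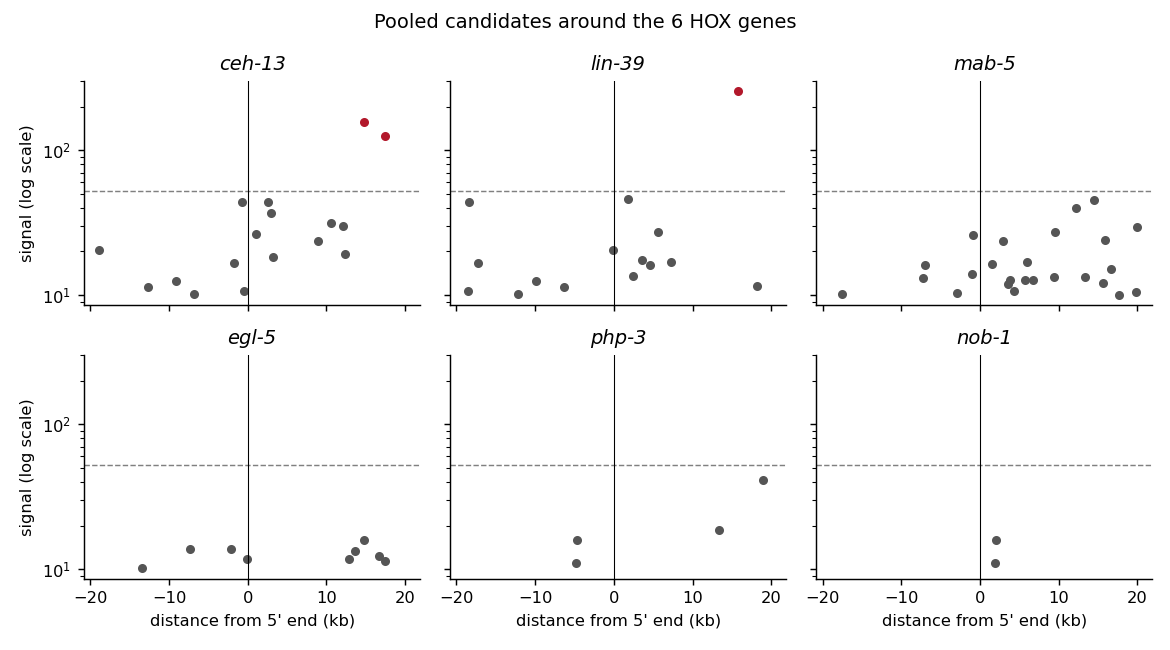
Signal of pooled candidates (vertical, log scale) against distance of the summit from the most upstream 5′ end of each HOX gene (horizontal, kb, positive in the direction of transcription), up to 20 kb on either side. Red points are optimal peaks, the dashed line is the lowest optimal signal of 52.2, and neighbouring genes share points. The 3 red points lie at least 14808 bp from the most upstream 5′ end of the HOX gene plotted.

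Among the remaining members, the next strongest promoter candidates had ranks from 5496 to 9109. ceh-7 had a summit 770 bp upstream (signal 37.7, rank 5496), but the same summit was only 225 bp upstream of prx-5, which encodes the import receptor of peroxisomes. ceh-23, an NK-like gene, had a summit 433 bp upstream (36.4, rank 5742), at ranks 4975 and 8993 in replicates 1 and 2. The ceh-79 candidate 280 bp upstream (35.96, rank 5857) had ranks of 7359 in replicate 1 and 3562 in replicate 2. It was thus the only member besides ceh-38 and ceh-20 that entered the strongest 3647 intervals of a replicate at its promoter. ceh-88 (32.5, rank 6631) and ceh-63 (30.7, rank 7080) had their candidates 191 bp upstream and 162 bp downstream of a 5′ end. ceh-2, an empty spiracles-type gene, had a summit 769 bp upstream (26.8, rank 8480) that lay inside a tRNA gene. ceh-57 had a summit 184 bp upstream (25.4, rank 9109) within 250 bp of a piRNA gene.

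By class, pooled promoter candidates were found at 6 of 20 NK-like genes, 4 of 12 PRD-like genes, 2 of 7 LIM genes, 2 of 3 POU genes, 4 of 6 HOX genes and 8 of 20 members not placed in a class here. These counts are of pooled candidates and stand beside 41.2% of all protein-coding genes. The pooled list had none at the 3 sine oculis-type genes ceh-32, ceh-33 and ceh-34, or at pal-1 and vab-7, the caudal-type and even-skipped-type genes. Weak promoter intervals of 1 replicate each lay at ceh-34 and pal-1 (replicate 1, ranks 24937 and 23609) and at ceh-33 (replicate 2, rank 21551). The LIM genes ttx-3 (signal 10.8, rank 27287) and lim-4 (9.97, rank 29604), which specify the AIY and AWB neurons, were near the end of the pooled list. The PRD-like genes unc-42 (16.8, rank 15858) and ttx-1 (14.5, rank 19037), the latter needed for the thermosensory AFD neurons, had signals below the pooled median of 17.4. The lim-4 candidate overlapped no interval of either replicate. Of the POU genes, ceh-18 and ceh-6 had candidates with signals of 18.99 and 18.4, and unc-86, which specifies touch neurons among others, had none. mec-3, its LIM partner in touch neurons, had none in the pooled list either, and a weak promoter interval in replicate 2 alone (rank 23050).

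**Figure D4:**
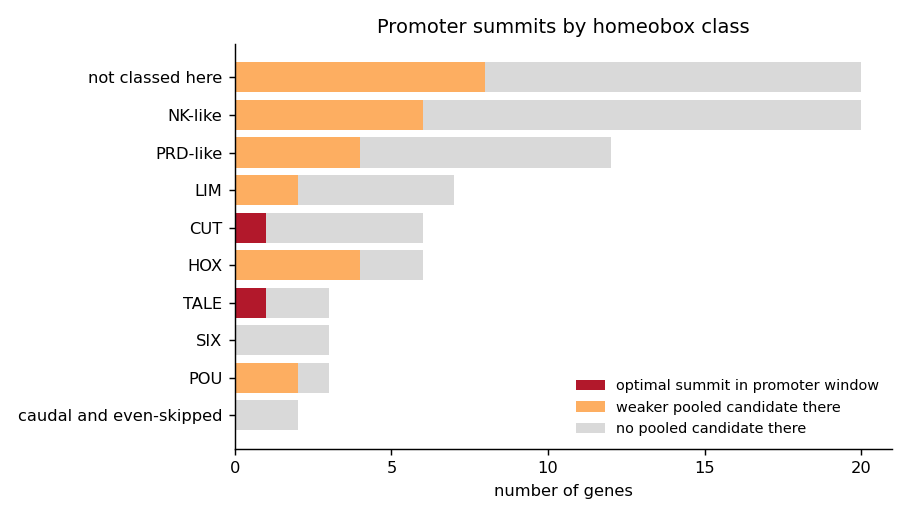
Number of homeobox genes (horizontal) in each class (vertical) with an optimal summit in the promoter window (red), with a weaker pooled candidate there (orange) or with none (grey). The CUT and TALE classes each hold 1 gene in red, and all other classes hold 0.

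No intronic summit of a member was among the optimal peaks (0%, 0 to 4.48%), against 1.76% of all protein-coding genes, a share within that interval. Candidates lay in introns of 19 members (23.2%, 15.4 to 33.4%), against 16.8% of all protein-coding genes. The intron bases of a gene, summed over all its introns, had a median of 1.70 kb over members and 0.740 kb over all genes. The strongest intronic candidate was in ceh-36, an Otx-type gene of the AWC and ASE sensory neurons, 711 bp downstream of its 5′ end at chrX:14185660-14186049. It had a pooled signal of 48.4 (rank 3996), 13.4 in replicate 1 (rank 8854) and 37.6 in replicate 2 (rank 2910). The replicates thus placed it on either side of rank 3647. Without replicate 1 it was the single intronic summit of a member, while 352 of all protein-coding genes had one. Of the 32 intronic candidates, 14 overlapped an interval of both replicates and 2 of neither. The same shares over all intronic candidates are not given here, so these counts have no background.

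Summits were also assigned to the nearest protein-coding 5′ end, whatever the distance. Of the 82 genes, 3 were nearest to an optimal summit (3.66%, 1.25 to 10.2%), against 13.7% of all protein-coding genes, and 40 were nearest to a pooled candidate (48.8%, 38.3 to 59.4%), against 52.5%. The added gene was ceh-5, a VAX-type gene, 1760 bp downstream of the peak at chrI:9725214-9725603 (signal 87.7, rank 1806, with 32.6 and 56.1 in replicates 1 and 2). That summit lay where transcripts of eat-16, a regulator of G protein signalling, have coding sequence or 3′ UTR, and in an intron of ocrl-1, so its nearest 5′ end was not that of the gene it lay in. The stretch of genome nearest to members was 0.596 Mb in all, with a median of 6.15 kb per gene against 3.77 kb over all genes. It held 115 candidates, or 193 per Mb against 299 per Mb genome-wide, and 3 optimal peaks, or 5.03 per Mb against 36.4 per Mb. Optimal peaks were 2.61% of the candidates nearest to members and 12.2% of all candidates. Without replicate 1, 6 members were nearest to one of the strongest 3647 intervals of replicate 2, namely ceh-13, ceh-20, ceh-36, ceh-38, ceh-5 and ceh-79. For this setting the count over all protein-coding genes is not given here.

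The X chromosome carried 22 of the members. None of them had an optimal promoter summit, against 13.04% of the protein-coding genes on X, and 7 had a candidate (31.8% against 44.8%). On the autosomes, 2 of 60 members had an optimal promoter summit (3.33% against 11.4%) and 21 a candidate (35.0% against 40.6%). Members on chromosome III, which holds the HOX genes, had a promoter candidate in 9 of 16 cases (56.2%), against 52.5% of all protein-coding genes there. At the other end, 30 members had no promoter interval in any list, no intronic candidate and no candidate nearest to their 5′ end. The matching count over all protein-coding genes is not given here, so these 30 cannot be read as a trait of members. They included lim-6, unc-30, vab-7, vab-15, ceh-14 and ceh-17.

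A promoter interval was found at 37 members in replicate 1 and at 24 in replicate 2, although the counts over all protein-coding genes were 8365 and 8386. Both lists held 18 of them, which is 48.6% of the replicate 1 genes and 75.0% of the replicate 2 genes. Over all protein-coding genes, 6344 were in both lists, or 75.8% and 75.6% of the replicate lists. All 18 also had a pooled promoter candidate. Being in both lists asks only for an interval in the window of the gene in each, and at ttx-1 and ceh-54 these did not overlap. Of the 37 pooled promoter candidates at members, which formed 34 separate places, 24 overlapped an interval of both replicates (64.9%), against 66.1% of all pooled promoter candidates. A further 9 were matched in replicate 1 alone (24.3% against 12.8%), 3 in replicate 2 alone (8.11% against 17.3%) and 1 in neither (2.70% against 3.90%).

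The GC content within 50 bp of the 37 promoter summits at members was 37.5% ± 8.88 (SD over summits), against 38.3% ± 9.07 over all pooled promoter summits and 44.5% ± 8.21 over optimal peaks. TAAT occurred in 28 of the 37 windows (75.7%), against 58.8% of all pooled promoter summits, and TAATTA in 3 (8.11% against 4.36%). TGATAA occurred in 8 (21.6% against 11.8%) and GAGAGA in 5 (13.5% against 13.3%). AGGTCA and AAGTCA occurred in 1 window each (2.70% against 3.35% and 4.33%), CACGTG in 1 (2.70% against 3.29%) and CGCGCG in 0 (against 2.15%). With 37 windows, some of which overlap, no test was made of these shares.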

How the data were processed

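The 2 replicates formed 1 group, and tests between groups were not possible. A deposited text listing names a control alignment next to the ChIP alignments behind the intervals. The aligner, caller and cutoff for reproducibility were not given in the sources used here. Every interval carried a signal and a −log10 q-value, both deposited by the authors as values of their peak caller, and start, end and summit in bp on ce11. The ce10 lists were not used. Depth is unknown, so Wilson intervals (95%) cover counting error of genes only.

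Summits were assigned to Ensembl release 115 protein-coding transcripts with Python 3.11.15, pandas 2.3.3, numpy 2.4.6 and scipy 1.17.1. Intronic summits lay in no annotated exon and no promoter window. A replicate interval matched a pooled one when they overlapped by 1 bp, and the strongest was taken. The assignment was checked on planted summits. Named were all members with an optimal summit in the promoter window or an intron or nearest to their 5′ end, the 10 next strongest, the 6 HOX genes and other homeobox genes with an optimal summit. Other genes were named after their values were seen. Of the gene symbols placed in classes, 1 was not found among protein-coding genes. The members, classes and lists were chosen with earlier results of these data known.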

Additional observations from a re-analysis of the deposited data

How the results depend on the processing

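The number of the 82 members with an optimal promoter summit (2) was 1 with the window of 500 bp upstream and 3 with 2000 bp. It was 4 with 1.5 times as many pooled candidates. Over all 19985 protein-coding genes the number was 2316, and these settings gave 1828, 2993 and 3167. The number of members ranged from 2 to 3 when either replicate was left out, against 2228 to 2256 of all genes. It stayed at 2 with the nearest gene only (1792 of all genes) and in the stronger 50% of optimal peaks (1246). Intronic optimal summits were at 0 members, against 352 of all genes. They were at 1 member without replicate 1 (352 of all genes) and at 0 without replicate 2 (372). The 28 members with a pooled promoter candidate became 18 when both replicate lists also had to hold an interval in the window. These 18 were 21.95% of members, against 6097 genes or 30.5% of all, and the intervals need not overlap between lists. The 28 became 12 at a q-value of at most 0.05, an alternative chosen after seeing the data. Leaving out either replicate gave 24 to 37. The 3 optimal summits nearest to a member became 3 to 6 when either replicate was left out. The GC content was 36.5% within 100 bp of the summit. Window size and list length change these counts by construction, and the cause of the differences between replicates was not tested. Promoter candidates matched in both replicates numbered 24, or 18 when the replicate interval had to hold the pooled summit. For the stricter setting the share over all promoter candidates is not given here, so this count has no background. It counts candidates, and is not the count of 18 genes above. No paired analysis was possible because there was only 1 group. The unknown read depth limits what the absence of an interval shows: it means that no interval was listed, not that no binding took place.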
